A study of Mus musculus with 12 samples.

Results

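The data were single-cell RNA sequencing counts from mouse gonads at embryonic day 12, and the 10 genes described here are the ligand subunits, antagonists and receptors of the activin pathway. They were chosen by symbol from the 32285 genes counted: Inha, Inhba and Inhbb for the subunits, Fst, Fstl3 and Fstl1 for the follistatin family, and Acvr1b, Acvr2a, Acvr2b and Tgfbr3 for the receptors. There were 6 groups of 2 libraries each, XX and XY for each of 3 genotypes: wild type (WT), -KTS KO and +KTS KO. The KTS names refer to 2 splice forms of WT1, a zinc finger factor of the early gonad, with and without the amino acids K, T and S between its last zinc fingers. The -KTS KO embryos were homozygous for an allele that cannot make the form without KTS, and the +KTS KO embryos were homozygous for an allele of the Frasier syndrome type that cannot make the form with KTS. The paper reports more -KTS transcripts in +KTS KO gonads than in controls, with similar total WT1 protein in XY. It proposes that the raised -KTS form, rather than the loss of +KTS, causes the XY sex reversal. Its evidence includes more SRY-positive cells in XY embryos that lacked +KTS but carried fewer -KTS alleles. It also includes FOXL2-positive cells in most XY embryos given a Wt1 transgene with the Frasier mutation. Neither kind of embryo is in these data. In the groups used here, loss of +KTS and gain of -KTS cannot be told apart. Both alleles act in every cell that expresses Wt1, and all groups were on a mixed B6CBAF1/JRj background. The methods list several embryos for replicate 2 of XX -KTS KO and for both libraries of XY -KTS KO, with 1 entry for each of the others. The tail somite stages differ between libraries, with the later stage in replicate 1 of both +KTS KO sexes. Stage was not modelled.

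Activins are dimers of beta subunits (encoded by Inhba and Inhbb) that signal through type II receptors (ACVR2A, ACVR2B) and the type I receptor ACVR1B to SMAD2 and SMAD3. Inhibins are dimers of the alpha subunit (Inha) with a beta subunit, and they oppose activin by occupying type II receptors together with betaglycan, the product of Tgfbr3. Follistatin (Fst) binds activin outside the cell and is a known gene of the developing ovary, where it acts with Foxl2 and WNT4, and FSTL3 is a related secreted antagonist. In the fetal testis, Inhba of Leydig cells drives the growth of Sertoli cells and cords, and Inhbb and Inha are made by Sertoli cells.

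On the GRCm38 build (GENCODE M21), Inha lies at chr1:75507077-75510366 on the plus strand and Inhbb at chr1:119415465-119422248 on the minus strand. Inhba is at chr13:16011851-16031621 on the plus strand and Fst at chr13:114452290-114458951 on the minus strand. The other members lie on chromosome 16 (Fstl1), 10 (Fstl3), 15 (Acvr1b), 2 (Acvr2a), 9 (Acvr2b) and 5 (Tgfbr3). RefSeq promoter windows of 250 bases before the annotated start (GRCm38.p6) were held for 8 of the 10 members, Fst and Tgfbr3 being without one. The windows of the beta subunit genes, Inhbb and Inhba, are printed as examples. They were chosen with the -KTS KO results of both genes known. The Inhbb window (chr1:119422249-119422498, minus strand, 68.0% G or C) and the Inhba window (chr13:16011601-16011850, plus strand, 43.2% G or C) read 5′ to 3′, with matches to GGGGGCG on either strand (CGCCCCC on the other), the core of EGR and WT1 sites, in capitals:
Inhbb: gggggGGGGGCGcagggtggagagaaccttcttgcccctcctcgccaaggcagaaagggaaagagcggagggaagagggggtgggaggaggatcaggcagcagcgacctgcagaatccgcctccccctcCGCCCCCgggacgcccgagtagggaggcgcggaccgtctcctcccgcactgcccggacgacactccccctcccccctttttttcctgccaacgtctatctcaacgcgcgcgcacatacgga
Inhba: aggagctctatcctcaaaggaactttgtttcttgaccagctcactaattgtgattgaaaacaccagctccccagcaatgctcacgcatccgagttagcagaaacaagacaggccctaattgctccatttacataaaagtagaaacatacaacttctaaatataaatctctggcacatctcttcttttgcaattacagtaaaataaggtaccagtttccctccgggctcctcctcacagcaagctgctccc

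The Inhbb window held this core at 121 and 245 bases before the start, and the Inhba window held none. In all, 3 of the 8 member windows held it (Inhbb, Acvr2b and Acvr1b) against 14.8% of 32851 windows, and the median window was 52.4% G or C. The windows of Fstl1, Fstl3, Inha, Acvr1b and Acvr2b overlap a GENCODE exon of their own gene. They are thus not wholly upstream of the gene in that annotation. A variant of that core, GTGGGCG, was in 7.02% of windows. The NR5A1 site searched was AAGGTCA, found in 4.08% of them. For GATA factors the letters were AGATAA, found in 9.99%. Each was searched on both strands, and 0 of the 8 member windows held any of these 3 motifs. In the Acvr2b window the GGGGGCG core was at 143, 153 and 191 bases before the start, and in the Acvr1b window at 95. Acvr2b was higher in XX -KTS KO, and Acvr1b was called in no comparison. A match is a description of the letters in the window, and no binding was measured here. Any link between a match and a change in level was not tested.

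The libraries held 108111924 to 147968666 UMIs (unique molecular identifiers, 1 per captured RNA molecule), and 76976 of 103730 barcodes were kept as cells. Of 76229 kept barcode sequences, 740 occurred in more than 1 library. Clusters were made without the 10 members and named "X-like" from marker lists. 2 sums per library were used: the gonadal somatic cells (66149 cells, at least 57124940 UMIs in a library), which are all cells outside germ, endothelial, immune, erythroid and mesonephric clusters, and the supporting lineage (19245 cells, at least 119 cells and 2237851 UMIs in a library), which are the pre-supporting-like, Sertoli-like and pre-granulosa-like clusters. Levels are given as CPM, the UMIs of a gene per 1000000 UMIs of the sum. Wt1 was at 158 to 309 CPM in all 12 libraries, and 3′ counts do not tell its splice forms apart, so it is no check of the genotype. Foxl2, the granulosa factor, was at 19.4 and 23.9 CPM in XX WT, at 14.2 and 6.57 CPM in XX +KTS KO, at 35.8 and 8.56 CPM in XY +KTS KO and at 0.368 CPM or less in every -KTS KO library. Amh, a Sertoli hormone, was at 187 and 69.9 CPM in XY WT, at 7.59 to 28.5 CPM in the 4 +KTS KO libraries and at 0.387 CPM or less in XX WT and every -KTS KO library.

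2 libraries stood apart. In XY +KTS KO replicate 1, clusters 9 (pre-granulosa-like, 44.0% of its kept cells) and 17 (interstitial progenitor-like) were almost its own, with Btg2, Fos and Egr1 among their leading genes, and 12 immediate early genes, listed after these clusters were seen, summed to 3316 CPM against 482 to 963 CPM in the other 11 libraries. In XX -KTS KO replicate 2, 17.2% of kept cells lay in cluster 16, which was shallow (median 3063 UMIs) and unnamed. Member calls that change without both of them are given both ways, and so are changes in the calls of the pathway list. The supporting lineage was held by different clusters in different groups: 3, 22 and 14 in XX WT, 11 and 14 in XY WT, 4 in both -KTS KO groups, 27 and 30 in XX +KTS KO, with 9 in replicate 1 of XY +KTS KO. Cluster 4 took the pre-granulosa-like name from its list although Foxl2 was at 0.32 to 1.47 CPM there, against 30.7 to 39.1 CPM in cluster 3, so it is called cluster 4 below. The unnamed clusters 0 and 24, whose leading genes included Cyp11a1 and Inha, held cells of both XX +KTS KO libraries and replicate 2 of XY +KTS KO and were left outside the supporting lineage. Clusters 27 and 30, named pre-supporting-like from 4 and 5 markers of that list, also had Cyp11a1 among their leading genes, and 27 had Inha, so the line between them and clusters 0 and 24 rests on the marker lists. Supporting-lineage values of both +KTS KO sexes thus cover only the cells so named. Foxl2 is not given for clusters 0 and 24. Unnamed cluster 33, 98 cells of XY +KTS KO replicate 2 led by muscle genes such as Actc1 and Myog, is part of the gonadal somatic sum. In sums over cells, a change in the number of cells of a type and a change in RNA per cell cannot be told apart.

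In gonadal somatic cells, 3 of the 10 members were past the threshold in XX -KTS KO against XX WT, 2 in XY -KTS KO against XY WT, 2 in XX +KTS KO against XX WT and 0 in XY +KTS KO against XY WT. The threshold was an adjusted p of 0.05 by edgeR's quasi-likelihood test over 17705 genes, of which 16.3% were past it in XX -KTS KO, 23.4% in XY -KTS KO and 12.4% in XY +KTS KO. Both members called in XX +KTS KO were higher, as were 2.33% of genes. In either direction 885 genes were past it in XX +KTS KO, and the count of 2 members there fell to 0 without any 1 of the 4 libraries compared. Each p measures the spread between the libraries only, at 2 a group. That spread was estimated for each gene over all 6 groups in 1 fit. A p can thus move with the spread of libraries outside its own comparison, and a call lost or gained can reflect this. In XY +KTS KO, 1 member was past an unadjusted p of 0.05 and DESeq2 called 1. The median absolute log2 fold change of the members against that of all genes was 0.65 against 0.34 in XX -KTS KO, 0.34 against 0.40 in XY -KTS KO, 0.32 against 0.24 in XX +KTS KO and 0.29 against 0.36 in XY +KTS KO.

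**Figure D1:**
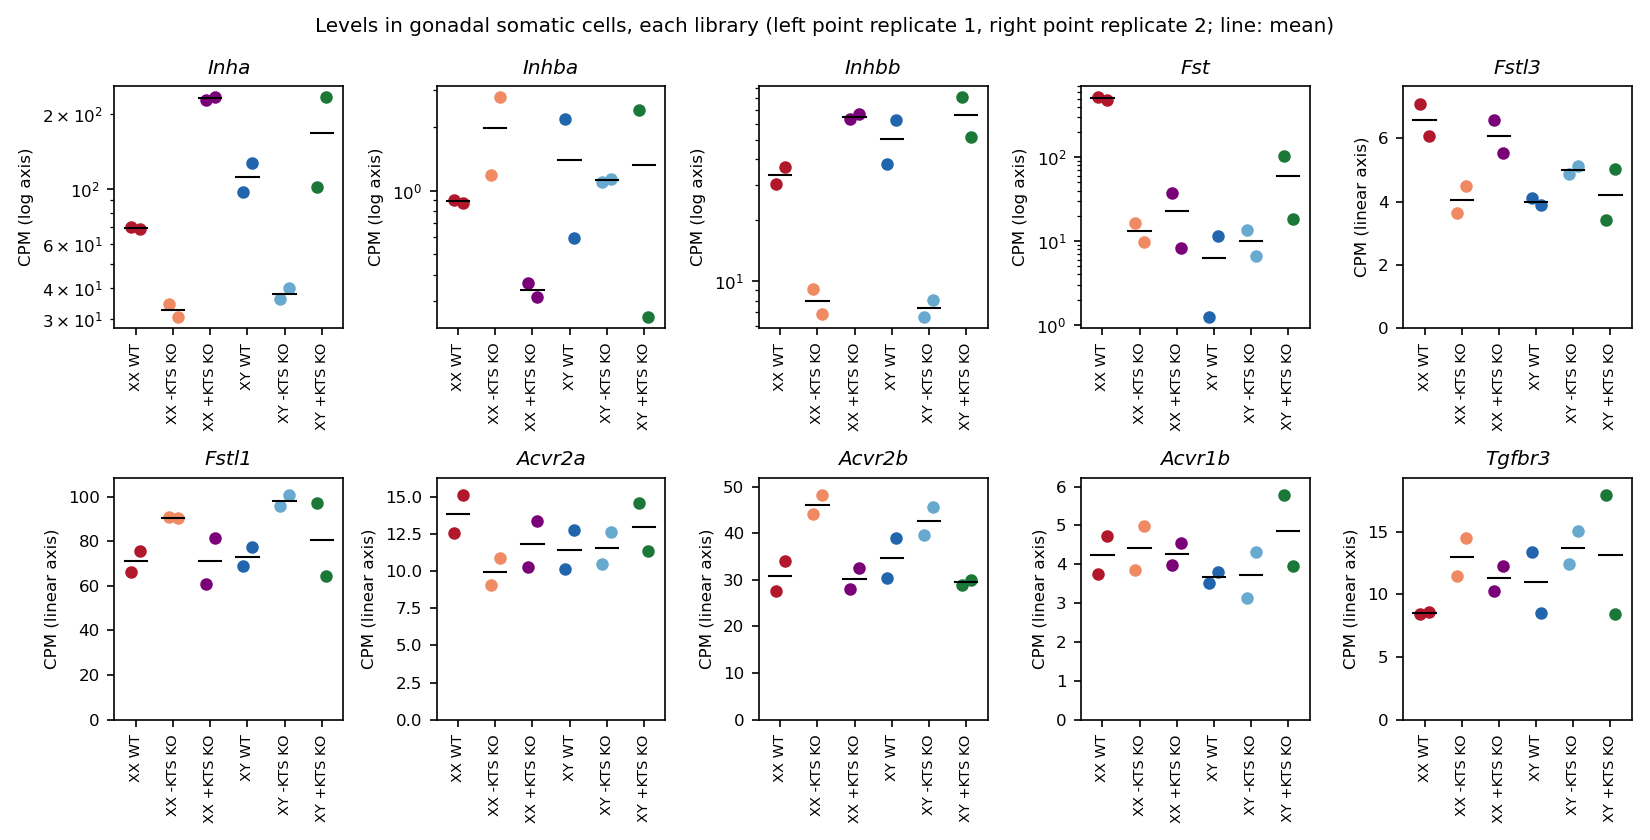
Level of each of the 10 genes in the gonadal somatic cells of every library (CPM on the vertical axis, logarithmic for Inha, Inhba, Inhbb and Fst and linear for the others), with the 6 groups on the horizontal axis and 1 point per library. Fst was at 523 and 481 CPM in XX WT and at 103 CPM or less in every other library, and Inhbb was at 9.09 CPM or less in the 4 -KTS KO libraries.

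Inhbb, the beta B subunit, was the member whose fall passed the threshold in both sexes without the -KTS form. In gonadal somatic cells the XX WT libraries held 30.3 and 36.8 CPM and the XX -KTS KO libraries 9.09 and 6.84 CPM. XY WT held 38.0 and 62.6 CPM, and XY -KTS KO 6.63 and 8.10 CPM. The -KTS KO libraries lay below every WT library, and the sexes of the -KTS KO overlapped. The fall was past the threshold in XX (log2 fold change -2.01 ± 0.24 SE, edgeR adjusted p = 0.000839) and in XY (log2 fold change -2.80 ± 0.25 SE, edgeR adjusted p = 9.69e-05), and in 11 of 11 alternatives in each sex. The difference between the sexes in this effect was not past the threshold (log2 fold change 0.79 ± 0.33 SE, edgeR adjusted p = 0.248).

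In the +KTS KO, Inhbb moved the other way in XX. XX +KTS KO libraries held 62.9 and 66.7 CPM, above both XX WT libraries (log2 fold change 0.99 ± 0.23 SE, edgeR adjusted p = 0.0404). The call was lost without any 1 of the 4 libraries compared: XX WT replicate 1 (log2 0.88, adjusted p = 0.253), XX WT replicate 2 (log2 1.11, adjusted p = 0.143), XX +KTS KO replicate 1 (log2 0.99, adjusted p = 0.136) or XX +KTS KO replicate 2 (log2 1.01, adjusted p = 0.172). It was also lost with the replicate block (adjusted p = 0.0593) and over all kept cells (0.0650). XY +KTS KO libraries held 81.3 and 51.7 CPM, and this range overlapped that of XY WT (log2 fold change 0.31 ± 0.23 SE, edgeR adjusted p = 0.386). In the WT, XX was lower than XY without passing the threshold (log2 fold change -0.65 ± 0.23 SE, edgeR adjusted p = 0.0984), which it did with DESeq2 (adjusted p = 0.0368) and with no filter on low counts (adjusted p = 0.0499).

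Within the supporting lineage, Inhbb was at 43.0 and 53.6 CPM (XX WT), 80.7 and 98.9 CPM (XY WT), 30.7 and 18.1 CPM (XX -KTS KO) and 18.5 and 24.9 CPM (XY -KTS KO). The fall was past the threshold in XY (log2 fold change -2.03 ± 0.26 SE, edgeR adjusted p = 0.00016) and, more weakly, in XX (log2 fold change -0.88 ± 0.25 SE, edgeR adjusted p = 0.0321). The XX call was lost without XX WT replicate 1 (log2 -1.02, adjusted p = 0.0583), XX WT replicate 2 (log2 -0.74, adjusted p = 0.169) or XX -KTS KO replicate 2 (log2 -0.54, adjusted p = 0.235). It was also lost at a clustering resolution of 1.2 (adjusted p = 0.0783) and without both libraries that stood apart (adjusted p = 0.152). In XX +KTS KO the supporting lineage held 103 and 103 CPM, higher than XX WT (log2 fold change 1.10 ± 0.25 SE, edgeR adjusted p = 0.0315). That call was lost without XX WT replicate 1 (log2 0.94, adjusted p = 0.212), XX WT replicate 2 (log2 1.23, adjusted p = 0.0946), XX +KTS KO replicate 1 (log2 1.06, adjusted p = 0.172) or XX +KTS KO replicate 2 (log2 1.12, adjusted p = 0.139). XY +KTS KO held 135 and 91.8 CPM, which overlapped XY WT.

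The level of Inhbb outside the supporting lineage also differed between genotypes. In interstitial progenitor-like cells the WT means were 15.2 ± 0.516 CPM (XX) and 13.3 ± 1.34 CPM (XY), and the -KTS KO means 1.41 ± 0.417 CPM (XX) and 0.970 ± 0.102 CPM (XY, mean ± SD, n = 2 libraries each). In coelomic epithelium-like cells the means were 16.5 ± 3.21 and 14.7 ± 9.52 CPM in XX and XY WT and 4.26 ± 0.105 and 2.82 ± 0.601 CPM in XX and XY -KTS KO. The +KTS KO means were 20.8 ± 0.115 and 23.2 ± 14.3 CPM in the interstitial class and 41.5 ± 10.8 and 30.8 ± 6.62 CPM in the coelomic class. In both classes every -KTS KO library lay below every other library. Of the libraries that stood apart, XX -KTS KO replicate 2 was at 1.70 CPM of Inhbb in the interstitial class (replicate 1 at 1.12 CPM) and 4.33 CPM in the coelomic class (4.18 CPM). XY +KTS KO replicate 1 was at 33.4 CPM in the interstitial class (replicate 2 at 13.1 CPM) and 26.1 CPM in the coelomic class (35.5 CPM). In XX +KTS KO, unnamed cluster 0 gave 59.4% and 53.7% of the Inhbb UMIs of gonadal somatic cells, at 97.3 and 112 CPM, and in XY +KTS KO replicate 2 it gave 56.4%. The summed steroidogenic markers of each group are given with Inha below, and their part in the Inhbb rise was not tested. No test was run on these class levels, and different clusters hold each class: interstitial clusters 1 and 13 are almost all -KTS KO cells and 5, 10 and 12 are almost all WT or +KTS KO cells, while coelomic cluster 7 is -KTS KO and 6, 8 and 15 are not.

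Inha, the alpha subunit that makes a dimer an inhibin, rose in XX +KTS KO and fell in XY -KTS KO. In gonadal somatic cells XX WT held 70.0 and 69.1 CPM and XY WT 97.2 and 127 CPM. In -KTS KO it was 34.5 and 30.5 CPM in XX and 36.1 and 39.8 CPM in XY. All 4 -KTS KO libraries were below all WT libraries, and the fall was past the threshold in XY (log2 fold change -1.59 ± 0.33 SE, edgeR adjusted p = 0.00785) but not in XX (log2 fold change -1.04 ± 0.33 SE, edgeR adjusted p = 0.0598). The XY call was lost without XY -KTS KO replicate 1 (log2 -1.54, adjusted p = 0.0546) or XY -KTS KO replicate 2 (log2 -1.65, adjusted p = 0.0556). For XX, the adjusted p was 0.0147 with DESeq2, 0.0155 with no filter on low counts and 0.0142 without the 2 libraries that stood apart (11 alternatives, 0.0142 to 0.257). In the supporting lineage the -KTS KO levels of 124 and 97.8 CPM (XX) overlapped those of XX WT (116 and 117 CPM). Those of 108 and 131 CPM (XY) lay below XY WT (239 and 212 CPM, log2 fold change -0.90 ± 0.35 SE, edgeR adjusted p = 0.0731). The XY difference there was past the threshold with DESeq2 (0.0366), with no filter (5.28e-05) and without both libraries that stood apart (0.00409).

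In XX +KTS KO, Inha was at 228 and 234 CPM over gonadal somatic cells, above both XX WT libraries (log2 fold change 1.77 ± 0.33 SE, edgeR adjusted p = 0.0178). The call was lost when any 1 of the compared libraries was left out: XX WT replicate 1 (log2 1.81, adjusted p = 0.12), XX WT replicate 2 (log2 1.73, adjusted p = 0.136), XX +KTS KO replicate 1 (log2 1.75, adjusted p = 0.0733) or XX +KTS KO replicate 2 (log2 1.80, adjusted p = 0.0981). The supporting lineage of XX +KTS KO, as named from the marker lists, was small. It had 309 and 114 pre-supporting-like and 39 and 5 pre-granulosa-like cells, mostly of clusters 27 and 30. XX WT had 705 and 618 pre-supporting-like and 2169 and 2213 pre-granulosa-like cells. Unnamed cluster 0, left outside this lineage, held 3165 and 1361 cells of the XX +KTS KO libraries. The paper reports pre-granulosa clusters of +KTS KO gonads that differ from those of its XX controls. Whether cluster 0 matches them was not tested, so the small size is no measure of cells lost. The lineage as named held 402 and 531 CPM of Inha in XX +KTS KO (log2 fold change 2.00 ± 0.36 SE, edgeR adjusted p = 0.00938). This too was lost without XX WT replicate 1 (log2 1.99, adjusted p = 0.0654), XX WT replicate 2 (log2 1.97, adjusted p = 0.0683) or XX +KTS KO replicate 2 (log2 1.81, adjusted p = 0.0768). XY +KTS KO had 102 CPM in replicate 1, inside the XY WT range, and 233 CPM in replicate 2, above it (log2 fold change 0.53 ± 0.33 SE, edgeR adjusted p = 0.296). In the supporting lineage its replicates were at 187 and 436 CPM (log2 fold change 0.36 ± 0.35 SE, edgeR adjusted p = 0.48). Without replicate 1 the gonadal somatic rise was past the threshold (log2 1.07, adjusted p = 0.00423). The adjusted p of its alternatives lay at 0.00423 to 0.651. The supporting-lineage rise was also past the threshold without replicate 1 (log2 0.87, adjusted p = 0.0329). Without both libraries that stood apart the gonadal somatic value was log2 1.07, adjusted p = 0.0079 and the supporting-lineage value log2 0.87, adjusted p = 0.0355. The difference between the sexes in the +KTS KO effect was not past the threshold (log2 fold change 1.24 ± 0.46 SE, edgeR adjusted p = 0.171), but was without XY +KTS KO replicate 2 (log2 2.07, adjusted p = 0.00113). Between the WT sexes Inha was lower in XX without passing it (log2 fold change -0.75 ± 0.33 SE, edgeR adjusted p = 0.166). It passed without both libraries that stood apart (adjusted p = 0.00864).

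The Inha counts of both XX +KTS KO libraries and of replicate 2 of XY +KTS KO came mainly from unnamed clusters. Cluster 0 gave 65.6% and 62.9% of the Inha UMIs of XX +KTS KO replicates 1 and 2, at 389 and 459.8 CPM, and 66.5% of those of XY +KTS KO replicate 2, at 448 CPM. In XY +KTS KO replicate 1 it gave 1.61%. Cluster 24 was at 611, 652 and 641 CPM in the same libraries. Pre-supporting-like cluster 27 held cells of both XX WT and XX +KTS KO, with Inha at 83.7 and 85.3 CPM in XX WT and 348 and 456 CPM in XX +KTS KO. Cluster 27 also held 113 cells of XY +KTS KO replicate 2 and 49 of XY WT replicate 2, but only 2 of XX -KTS KO replicate 2. These clusters had Inha among their leading genes but were made without it. Among the clusters of XY WT, pre-supporting-like cluster 14 had 461 and 341 CPM and Sertoli-like cluster 11 had 156 and 94.0 CPM. Pre-granulosa-like cluster 3 had 112 and 112 CPM in XX WT, and cluster 4 of the -KTS KO had 97.6 to 131 CPM in its 4 libraries. The summed level of 5 steroidogenic genes in gonadal somatic cells, Cyp11a1 among them, was 97.7 to 193 CPM in the 4 +KTS KO libraries and 30.5 to 56.6 CPM in the other 8, and its part in the Inha result was not tested.

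Inhba, the beta A subunit, was counted little, with 1035 UMIs in the gonadal somatic cells of all 12 libraries. In XX its gonadal somatic levels were 0.906 and 0.876 CPM (WT), 1.19 and 2.78 CPM (-KTS KO) and 0.364 and 0.312 CPM (+KTS KO). In XY they were 2.19 and 0.595 CPM (WT), 1.10 and 1.14 CPM (-KTS KO) and 2.41 and 0.251 CPM (+KTS KO). In XX the -KTS KO libraries lay above and the +KTS KO libraries below those of the WT, in XY the groups overlapped, and no comparison of gonadal somatic cells was past the threshold. With all genotypes pooled, the median of Inhba was highest in the interstitial progenitor-like class, at 1.37 CPM over 12 libraries. It was 0.660 CPM over 8 libraries in the pre-granulosa-like class, with 4.25 CPM at most, and 0 CPM in germ and endothelial cells. That pre-granulosa-like class includes cluster 4 of the -KTS KO. The supporting lineage of XX WT, most of it pre-granulosa-like cluster 3, held 0.108 ± 0.0875 CPM of Inhba (mean ± SD, n = 2 libraries). In supporting-lineage cells the -KTS KO libraries held 30 and 58 UMIs in XX and 28 and 22 UMIs in XY, against 6 and 2 in XX WT and 11 and 4 in XY WT, and 0 in both XX +KTS KO libraries. XX -KTS KO was past the threshold there (edgeR adjusted p = 0.00308, and in 10 of 10 alternatives), and XY -KTS KO was not (adjusted p = 0.0531), although it was with no filter on low counts (0.0021), without both libraries that stood apart (0.0451) or without XY WT replicate 1 (0.0412), with 0.0021 to 0.26 over all alternatives. No fold change is given, because XX WT rests on 8 UMIs.

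**Figure D2:**
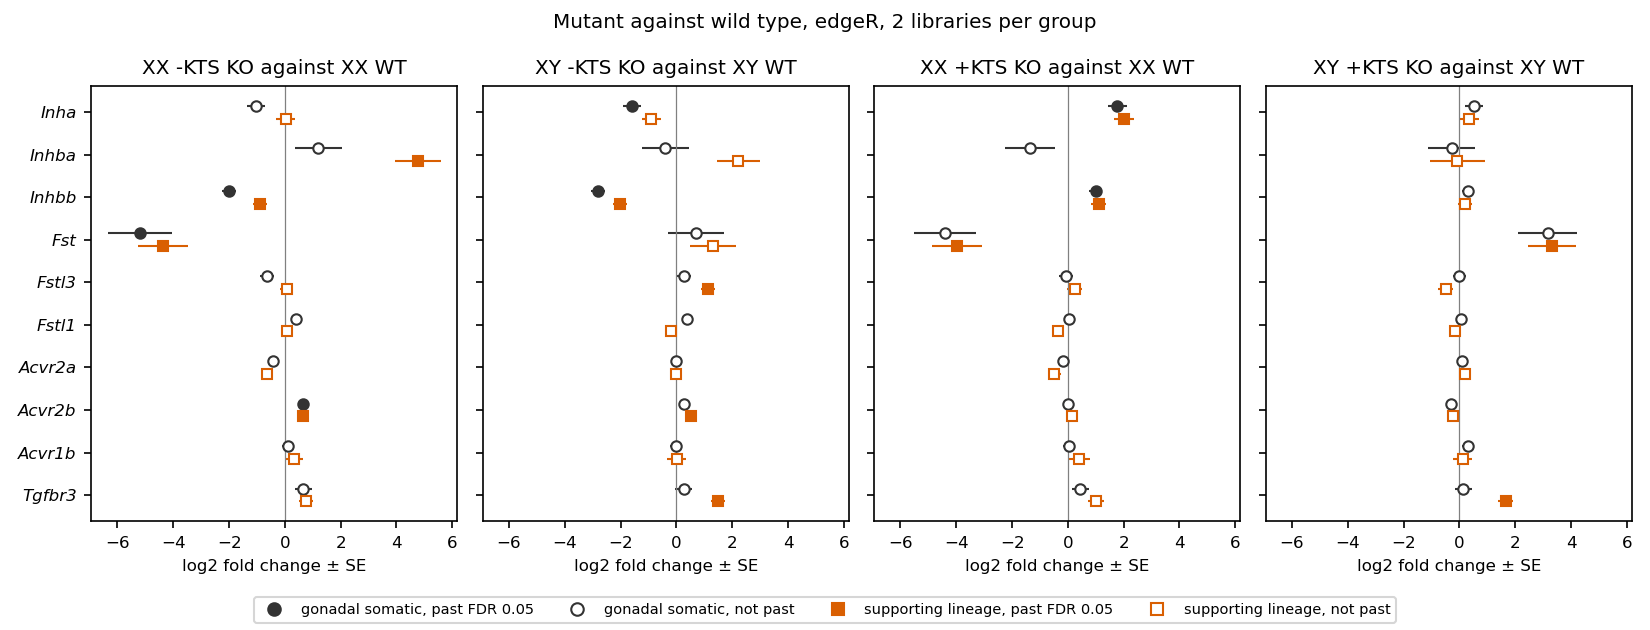
Log2 fold change of each gene in each knockout against the WT of the same sex, with circles for gonadal somatic cells, squares for the supporting lineage, bars for 1 SE, and filled symbols for an edgeR adjusted p under 0.05. Inhbb lay below 0 in both sexes of -KTS KO, and Fst lay below 0 in XX and above 0 in XY of +KTS KO. Inhba of XX +KTS KO supporting cells is not drawn because it had 0 UMIs.

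Fst, the activin antagonist follistatin, was the member with the largest difference between the WT sexes. The XX WT libraries held 523 and 481 CPM over gonadal somatic cells and the XY WT libraries 1.24 and 11.5 CPM, with no overlap (log2 fold change 6.29 ± 1.22 SE, edgeR adjusted p = 0.00961, past the threshold in 10 of 11 alternatives). The call was lost without XY WT replicate 1 (log2 5.45, adjusted p = 0.0546). Of all tested genes, 13.3% differed between the WT sexes, and Fst was the 1 member of 10 that did.

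Fst was lower in the XX gonads of both knockouts. XX -KTS KO held 16.5 and 9.86 CPM (log2 fold change -5.19 ± 1.16 SE, edgeR adjusted p = 0.0148). XX +KTS KO held 37.5 and 8.28 CPM (log2 fold change -4.39 ± 1.11 SE, edgeR adjusted p = 0.0538). The first difference passed the threshold and the second did not. All 4 libraries were below both XX WT libraries. The first was past the threshold in 7 of 11 alternatives (3.04e-05 to 0.116). It was lost without XX WT replicate 1 (log2 -5.10, adjusted p = 0.0509), XX -KTS KO replicate 1 (log2 -5.62, adjusted p = 0.0876) or XX -KTS KO replicate 2 (log2 -4.86, adjusted p = 0.116), as well as without both libraries that stood apart (log2 -4.84, adjusted p = 0.0731). The second had an adjusted p of 0.00136 with DESeq2, 0.00168 with no filter on low counts and 0.0485 without the libraries that stood apart, and 0.00136 to 0.299 over all alternatives. Within the supporting lineage the fall was past the threshold in both: XX WT held 959 and 919 CPM and XX -KTS KO 51.9 and 33.3 CPM (log2 fold change -4.36 ± 0.90 SE, edgeR adjusted p = 0.00673). In XX +KTS KO it was 87.3 and 28.2 CPM (log2 fold change -3.97 ± 0.90 SE, edgeR adjusted p = 0.0286). The first of these was lost without XX -KTS KO replicate 2 (log2 -4.07, adjusted p = 0.0699), and the second without XX WT replicate 1 (log2 -3.94, adjusted p = 0.0784), XX WT replicate 2 (log2 -4.04, adjusted p = 0.0673), XX +KTS KO replicate 1 (log2 -5.10, adjusted p = 0.105) or XX +KTS KO replicate 2 (log2 -3.40, adjusted p = 0.222).

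In XY gonads the -KTS KO libraries overlapped the WT, at 13.5 and 6.58 CPM (log2 fold change 0.69 ± 1.00 SE, edgeR adjusted p = 0.667). In the supporting lineage of XY -KTS KO it was at 37.9 and 16.4 CPM (log2 fold change 1.31 ± 0.82 SE, edgeR adjusted p = 0.261), past the threshold with no filter (9.79e-09) and without XY WT replicate 2 (log2 3.08, adjusted p = 0.0394). XY +KTS KO held 103 and 18.1 CPM over gonadal somatic cells, both above XY WT, without passing the threshold (log2 fold change 3.16 ± 1.07 SE, edgeR adjusted p = 0.0797). That call was past it with DESeq2 (adjusted p = 0.0280) and with no filter (0.0105), and without XY WT replicate 2 (log2 5.38, adjusted p = 0.0459) or XY +KTS KO replicate 2 (log2 3.90, adjusted p = 0.0377). Its supporting lineage held 209 and 37.8 CPM against 3.13 and 19.5 CPM in XY WT (log2 fold change 3.32 ± 0.87 SE, edgeR adjusted p = 0.0193). Here the call was lost without XY WT replicate 1 (log2 2.56, adjusted p = 0.1) or XY +KTS KO replicate 1 (log2 1.69, adjusted p = 0.274). It was also lost at a clustering resolution of 1.2 (adjusted p = 0.0549) and without both libraries that stood apart (adjusted p = 0.3). The lineage of XY +KTS KO replicate 1 is almost all cluster 9 (3104 of its 3108 pre-granulosa-like cells), and that of replicate 2 has 9 pre-granulosa-like and 202 pre-supporting-like cells.

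The effect of the +KTS KO on Fst differed between the sexes (log2 fold change -7.55 ± 1.54 SE, edgeR adjusted p = 0.0293), the only member for which this interaction was past the threshold, among 3.83% of all genes. It was past the threshold in 9 of 15 alternatives (adjusted p of 6.21e-05 to 0.115). It was lost without XX WT replicate 1 (log2 -7.46, adjusted p = 0.0774), XX WT replicate 2 (log2 -7.60, adjusted p = 0.0804), XX +KTS KO replicate 2 (log2 -6.78, adjusted p = 0.115), XY WT replicate 1 (log2 -6.71, adjusted p = 0.0809) or XY +KTS KO replicate 1 (log2 -5.95, adjusted p = 0.0523), as well as without both libraries that stood apart (adjusted p = 0.0807). For the -KTS KO the interaction of Fst was not past the threshold (log2 fold change -5.87 ± 1.49 SE, edgeR adjusted p = 0.0692). Of the members 0 were called by edgeR, against 3.06% of genes, 3 at an unadjusted p under 0.05 and 1 by DESeq2. Fst was that 1 (adjusted p = 0.00371), and it was also past the threshold with no filter (0.00251) and without XY WT replicate 2 (log2 -8.11, adjusted p = 0.0323), with 0.00251 to 0.24 over all alternatives.

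The Fst counts in XX WT came from few clusters. Pre-granulosa-like cluster 3 gave 69.2% and 73.3% of them with 40.5% and 38.3% of the cells, at 896 and 901 CPM, and cluster 22 was at 1377 and 1120.5 CPM. Pre-supporting-like cluster 14 held cells of both sexes, and there the XX WT cells had 679.8 and 824 CPM of Fst and the XY WT cells 5.99 and 30.1 CPM. Sertoli-like cluster 11 had 0.500 and 3.32 CPM. Pax8-expressing supporting-like cluster 25 of XX WT had 439 and 299 CPM. Cluster 4 of the -KTS KO had 15.9 to 51.7 CPM, and cluster 9 of XY +KTS KO replicate 1 had 209.9 CPM and gave 93.5% of the Fst UMIs of that library.

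Per cell, at least 1 Fst UMI was found in 69.8% and 72.8% of pre-granulosa-like cells of the XX WT libraries after each cell was thinned to 5000 UMIs (76.6% and 79.8% unthinned, median depth 12033 and 14370 UMIs). Germ cells of the same libraries, which serve as the background, had 0.673% and 0.442% (5.30% and 7.63% unthinned, median depth 29857 and 34466 UMIs). The Sertoli-like cells of XY WT had 0.232% and 0.678%, against 0.101% and 0.201% in the germ cells and 0.787% and 0.408% in the endothelial cells of those libraries. Median depths there were 10434 and 13360.5 UMIs (Sertoli-like), 21913 and 26589 UMIs (germ) and 13439.5 and 15536.5 UMIs (endothelial). Fst was thus found in less than 1% of each of these 3 cell types. Cluster 4 cells had a UMI more often than the germ cells beside them. The shares were 11.8% and 7.38% in XX -KTS KO, where at most 0.349% of germ cells had one, and 8.79% and 3.95% in XY -KTS KO, against 0.218% and 0.487% of germ cells. In XY +KTS KO replicate 1, 33.8% of pre-granulosa-like cells and 2.24% of germ cells had one.

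Fstl3, the second secreted antagonist, was at 3.42 to 7.08 CPM in gonadal somatic cells and no comparison there was past the threshold. Supporting-lineage cells of XY WT held 6.23 and 5.36 CPM and XY -KTS KO 11.3 and 13.7 CPM, with no overlap (log2 fold change 1.13 ± 0.24 SE, edgeR adjusted p = 0.0048, past the threshold in 10 of 10 alternatives). The XX WT level was 10.4 and 9.63 CPM, and XX -KTS KO at 8.81 and 10.9 CPM overlapped it. XY +KTS KO held 3.90 and 6.41 CPM, around the XY WT libraries, and was lower only without its replicate 2 (log2 -0.79, adjusted p = 0.0351). Fstl1, a follistatin-like protein with no clear role as an activin antagonist, was at 60.8 to 101 CPM in gonadal somatic cells and was called in no comparison of either sum. Its class level was 149 CPM in the mesonephric tubule-like cells of 1 library. With all genotypes pooled, over different sets of libraries, the medians of the other named classes ran from 117 CPM (interstitial progenitor-like) and 106 CPM (endothelial) down to 4.41 CPM (erythroid).

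The type II receptor gene Acvr2b was higher in XX -KTS KO than in XX WT. The XX WT libraries had 27.6 and 34.1 CPM and those of XX -KTS KO 44.1 and 48.1 CPM, with no overlap (log2 fold change 0.64 ± 0.14 SE, edgeR adjusted p = 0.0145). The call was lost without XX WT replicate 1 (log2 0.52, adjusted p = 0.13), XX -KTS KO replicate 1 (log2 0.69, adjusted p = 0.0575) or XX -KTS KO replicate 2 (log2 0.59, adjusted p = 0.0908), and without both libraries that stood apart (adjusted p = 0.0604). XY WT had 30.4 and 38.9 CPM and XY -KTS KO 39.6 and 45.7 CPM (log2 fold change 0.27 ± 0.14 SE, edgeR adjusted p = 0.204). The supporting lineage showed the same direction in XX (24.4 and 29.7 against 35.6 and 43.3 CPM, log2 fold change 0.64 ± 0.16 SE, edgeR adjusted p = 0.0212). The same held in XY (23.0 and 32.6 against 38.5 and 39.9 CPM, log2 fold change 0.52 ± 0.16 SE, edgeR adjusted p = 0.0328). The XX call there was lost without XX WT replicate 1 (log2 0.51, adjusted p = 0.187), XX WT replicate 2 (log2 0.75, adjusted p = 0.0577) or XX -KTS KO replicate 2 (log2 0.51, adjusted p = 0.174), and without both libraries that stood apart (adjusted p = 0.151). The XY call was lost without XY WT replicate 1 (log2 0.34, adjusted p = 0.233), XY -KTS KO replicate 1 (log2 0.54, adjusted p = 0.0962) or XY -KTS KO replicate 2 (log2 0.51, adjusted p = 0.124), and with no filter on low counts (adjusted p = 0.0579). The change was small beside those of Fst and Inhbb, and Acvr2b was present in most classes, germ cells included, with class medians of 23.6 to 39.2 CPM in the named classes other than erythroid (2.07 CPM) and mesonephric tubule-like cells (67.6 CPM, 1 library).

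Acvr2a, the other type II receptor gene, was at 9.05 to 15.1 CPM over the 12 libraries, and Acvr1b, the type I receptor gene, at 3.14 to 5.77 CPM. Neither was past the threshold in any comparison of either sum. Tgfbr3, which encodes betaglycan, the inhibin co-receptor, was at 8.44 to 17.9 CPM in gonadal somatic cells with no call. In the supporting lineage it was at 4.75 and 3.51 CPM in XY WT, 11.3 and 11.6 CPM in XY -KTS KO (log2 fold change 1.49 ± 0.26 SE, edgeR adjusted p = 0.00138) and 17.6 and 9.78 CPM in XY +KTS KO (log2 fold change 1.65 ± 0.27 SE, edgeR adjusted p = 0.00165). Both knockouts were above XY WT in every library. In XX it was at 7.09 and 6.30 CPM (WT), 8.76 and 12.6 CPM (-KTS KO) and 12.5 and 14.7 CPM (+KTS KO), with no call by edgeR. The -KTS KO passed with no filter on low counts (adjusted p = 0.0233). The +KTS KO passed with DESeq2 (adjusted p = 0.0363), with no filter on low counts (adjusted p = 0.00924) and without both libraries that stood apart (adjusted p = 0.0446). In XY, the -KTS KO call held in 10 of 10 alternatives. The +KTS KO call was lost without XY +KTS KO replicate 1 (log2 1.17, adjusted p = 0.0652), and without both libraries that stood apart (adjusted p = 0.0596). Sertoli-like cluster 11 of XY WT was at 1.15 and 1.47 CPM. With all genotypes pooled, the interstitial progenitor-like class had the highest median of the named classes, 16.1 CPM over 12 libraries (12.1 to 21.8 CPM). The pre-supporting-like class ran from 5.63 to 28.1 CPM over 8 libraries.

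**Figure D3:**
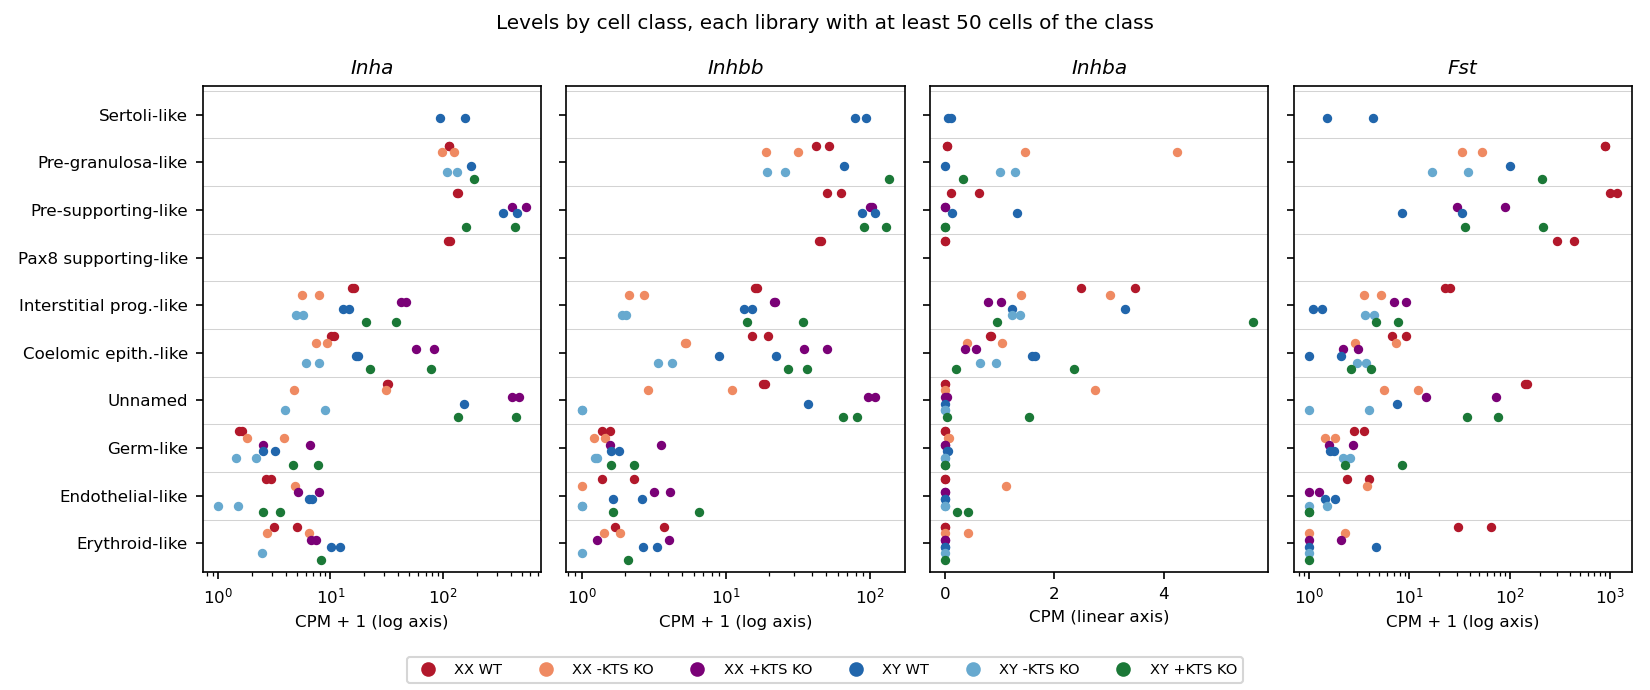
Level of Inha, Inhbb, Inhba and Fst in each cell class and library (CPM + 1 on a logarithmic axis, except Inhba on a linear CPM axis), coloured by group. In XY WT, Inha was at 456 and 342 CPM in pre-supporting-like and 156 and 94.0 CPM in Sertoli-like cells.

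In the supporting lineage, the -KTS KO had 4 of the 10 members called in each sex and the +KTS KO had 3 in XX and 2 in XY, against 17.7% of 15469 genes (XX -KTS KO), 4.62% (XX +KTS KO) and 22.5% (XY +KTS KO). XX -KTS KO had 2 higher (8.13% of genes) and 2 lower (9.54%), XX +KTS KO had 2 higher (2.39%) and 1 lower (2.23%), and XY +KTS KO had 2 higher (10.2%) and 0 lower (12.3%). In XY -KTS KO, 3 members were higher, as were 13.5% of genes, and 1 was lower, as were 16.5%. XX +KTS KO, with the lowest background, had Fst lower and Inha and Inhbb higher. XY -KTS KO had Fstl3, Tgfbr3 and Acvr2b higher and Inhbb lower. The classes hold different genotypes, so the levels of Inha and Inhbb between classes are here set side by side within the WT only. The class medians given for other members pool all genotypes and rest on different sets of libraries. In XY WT, Inha was at 456 and 342 CPM in pre-supporting-like, 156 and 94.0 CPM in Sertoli-like and 11.9 and 13.5 CPM in interstitial progenitor-like cells. In XX WT it was at 131 and 136 CPM in pre-supporting-like, 112 and 112 CPM in pre-granulosa-like and 15.3 and 14.7 CPM in interstitial progenitor-like cells. Inha was thus highest in the pre-supporting-like class of each WT library among these classes. Inhbb in XY WT was at 87.9 and 107 CPM in pre-supporting-like and 78.1 and 93.3 CPM in Sertoli-like cells. In XX WT it was at 49.4 and 61.9 CPM in pre-supporting-like and 41.1 and 51.3 CPM in pre-granulosa-like cells. Within each of the 4 WT libraries Inhbb was higher in the pre-supporting-like class.

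The other genes of the pathway were counted from a list of 34 genes, of which 27 passed the filter and 7 (Inhbc, Inhbe, Mstn, Tdgf1, Cfc1, Fstl5 and Foxh1) did not, with 0.633 CPM at most. In gonadal somatic cells of XX -KTS KO, 4 of them rose and 1 fell, where 6.77% of all genes rose and 9.52% fell. XY -KTS KO had 1 rise and 5 falls, in a comparison where 1956 of 17705 genes rose and 12.4% fell. The +KTS KO had 4 rises and 0 falls in XX (2.33% and 2.67% of all genes) and 1 rise and 7 falls in XY (6.04% and 6.33%). In XX -KTS KO the rises were led by Acvr1c, the type I receptor ALK7 (2.72 ± 0.31, log2 fold change ± SE), Pmepa1, a SMAD target that feeds back on the pathway (1.71 ± 0.21), and Pcsk5, a proprotein convertase (1.68 ± 0.23), and Tgfbr3l fell (-1.89 ± 0.23). In XY -KTS KO, Gdf11 rose (1.14 ± 0.18) and Fstl4 (-3.12 ± 0.69), the NODAL antagonist Lefty2 (-2.45 ± 0.62) and Pcsk6 (-1.42 ± 0.35) fell most. In XX +KTS KO, Skil, a SMAD co-repressor (1.85 ± 0.21), Pcsk5 (0.97 ± 0.23) and Pmepa1 (0.93 ± 0.20) rose. In XY +KTS KO, Gdf11 rose (0.96 ± 0.18), and Fstl4 (-3.64 ± 0.71), Acvr1c (-2.48 ± 0.30) and Igsf1 (-1.46 ± 0.40) fell most. Between the WT sexes, 2 were higher and 7 lower in XX (6.29% and 6.98% of all genes), led by Tgfbr3l (mean 18.3 against 7.60 CPM) and Gdf11 (1.14 ± 0.18) above and Fstl4 (-3.47 ± 0.70), Acvr1c (-2.55 ± 0.30) and Lefty2 (-2.50 ± 0.62) below.

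The effect differed between the sexes for 8 of the 27 genes in the -KTS KO, 6 with the higher log2 fold change in XX and 2 with the lower (1.79% and 1.27% of all genes). It differed for 5 in the +KTS KO, all with the higher in XX (2.03% of all genes, with 1.80% lower). These 5 were Acvr1c (2.99 ± 0.42), Pmepa1 (2.10 ± 0.29), Skil (1.96 ± 0.29), Pcsk5 and Acvr1 in the +KTS KO. For the -KTS KO, Lefty2 (4.52 ± 0.89), Acvr1c (2.34 ± 0.41) and Pmepa1 (1.94 ± 0.29) led, with Tgfbr3l (-1.57 ± 0.31) and Gdf11 (-1.10 ± 0.25) lower. Lefty2 was counted little in gonadal somatic cells, at 0.119 and 0.0910 CPM (XX WT), 0.524 and 0.611 CPM (XY WT), 0.216 and 0.648 CPM (XX -KTS KO) and 0.0977 and 0.111 CPM (XY -KTS KO). It was among the leading genes of a germ-like cluster at a resolution of 1.2. The 6 germ markers summed in the same cells to 17.3 and 9.22 CPM (XX WT), 20.6 and 33.0 CPM (XY WT), 7.38 and 55.2 CPM (XX -KTS KO) and 9.18 and 9.68 CPM (XY -KTS KO), with 0 of the 6 at 0 in these libraries. Their part in the Lefty2 differences was not tested. The XX and XY comparisons share no library, but each interaction uses the same WT libraries as the comparisons it joins.

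Without both libraries that stood apart, 29 genes of the list were tested. The 4 rises and 1 fall of XX -KTS KO were all kept, as were those of XX +KTS KO and the 2 higher and 7 lower genes between the WT sexes. XY +KTS KO kept 3 of its 7 falls, in a fit where 4.48% of all genes fell. Bambi, Fstl4 (-3.48 ± 0.97, adjusted p = 0.0697), Pcsk5 and Pmepa1 were lost there, and Lefty2 (-2.47 ± 0.53, adjusted p = 0.031) and a rise of Mstn were gained. Mstn, a muscle gene, had 63 UMIs in XY +KTS KO replicate 2, the library that also holds the cells of cluster 33, and 0 in the other 11 libraries. XY -KTS KO, which holds neither library, kept its calls and had 2 rises and 7 falls (12.1% and 13.8% of all genes). For the -KTS KO interaction 5 genes were higher and 0 lower (1.40% and 0.569% of all genes), with Lefty2 (3.58 ± 0.66, adjusted p = 0.0432) still past the threshold and Pcsk5, Gdf11 (-1.12 ± 0.22, adjusted p = 0.0521) and Tgfbr3l (-1.38 ± 0.37, adjusted p = 0.111) no longer past it. For the +KTS KO interaction Pcsk5 was lost, and Lefty2 (higher) and Gdf11 (lower) were gained.

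**Figure D4:**
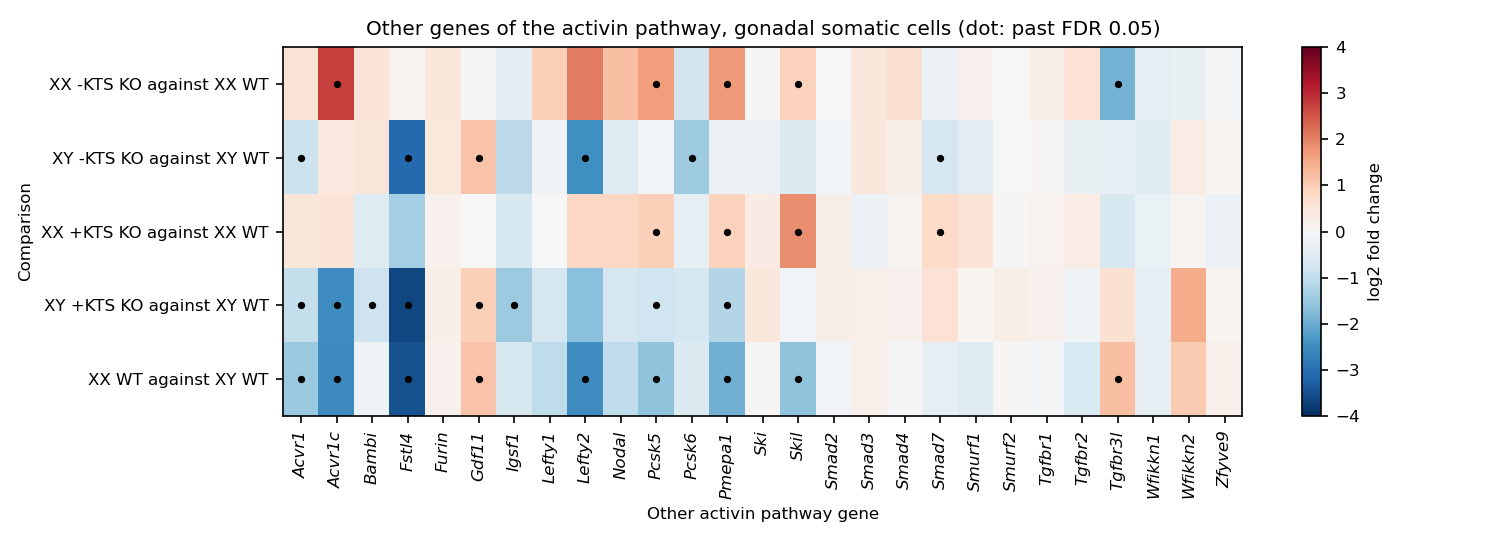
Heat map of the log2 fold change in gonadal somatic cells (colour scale, red for higher and blue for lower) of the 27 tested genes of the activin pathway list (columns) in the 4 knockout comparisons and between the WT sexes (5 bands), with a dot where the edgeR adjusted p was under 0.05. Acvr1c and Pmepa1 lay above 0 in XX -KTS KO, and Acvr1c and Fstl4 lay below 0 in XY +KTS KO.

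The genes most like Fst, Inha and Inhbb were found by Pearson correlation of log2(CPM + 1) over the 12 libraries, among 9847 genes, and are given with no test because the libraries fall into groups and differ in cell makeup. For Fst these were Dcaf12l1 (0.970), Efna1 (0.967), Cers4 (0.966), Frmd6 (0.964) and Gsdmd (0.960). For Inha they were Sel1l3 (0.982), Arhgef16 (0.974), Psmb10 (0.968), Jsrp1 (0.965) and Gpha2 (0.964), and for Inhbb Fyn (0.991), Nab2 (0.989), Elf4 (0.989), Dmd (0.988) and Pitpnm3 (0.986).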

How the data were processed

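The deposited values are raw UMI counts for each gene and barcode, which the authors obtained from 10x 3′ libraries. The submitters' processing notes name Cell Ranger 6.0 and the mm10 build. Methods name version 3 of the kit and labels version 2. Barcodes passed with 1000 or more genes and no more than 10% of UMIs from mitochondrial genes (83513). Scrublet (scanpy 1.11.5) called at most 3 doublets in 7 of 12 libraries by its own threshold, so the highest-scoring 0.8% per 1000 barcodes (7447 of all barcodes) were marked and left out. The 76976 cells that passed both steps were clustered with sctransform 0.4.2 and Seurat 5.3.0 (R 4.3.3; 3000 variable genes, 50 principal components, 20 neighbours, resolution 0.8, 35 clusters), with the members left out. A class needed at least 3 markers, each detected in 20% of cells.

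Counts were summed per library, and tested with edgeR 4.0.16 (TMM, filterByExpr, quasi-likelihood test, 6 groups in 1 fit, Benjamini-Hochberg over all genes). SEs are |log2 fold change| over the root of the F statistic. Alternatives were DESeq2 1.42.0, RLE size factors, no filter, a replicate block, all kept cells, a resolution of 1.2, leaving out each library and, chosen after the data were seen, leaving out both libraries that stood apart. For class levels and shares of cells, the alternatives were keeping doublets and not thinning cells to 5000 UMIs. The fit was also run on simulated counts, and no result here rests on that run. Python was 3.11.15. Members and lists were chosen with earlier results of these data known, and members are named by symbol. The pathway list names up to 3 rises and 3 falls per comparison, and the 5 most similar genes had at least 5 CPM on average.

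Replicate numbers come from the labels, which give no shared litter or day. Over 15 pairs of groups, the correlation of same-numbered deviations ran from -0.34 to 0.42 and was over 0.1 in 5. The numbers were not used to pair the libraries in the first fit. Whether some same-numbered libraries share a litter or day was not tested.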

Additional observations from a re-analysis of the deposited data

Results flagged for a closer look

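For Fst, the effect of the +KTS KO differed between XX and XY gonadal somatic cells by a log2 interaction of -7.55 ± 1.54 (SE, edgeR adjusted p = 0.0293). Fst was at 523 and 481 CPM (XX WT), 37.5 and 8.28 CPM (XX +KTS KO), 1.24 and 11.5 CPM (XY WT) and 103 and 18.1 CPM (XY +KTS KO), so both XX knockout libraries were lower and both XY knockout libraries higher than the WT of their sex. Leaving out XY +KTS KO replicate 1, whose cells form clusters of their own with high immediate early genes, gave log2 -5.95, adjusted p = 0.0523, and the adjusted p over all alternatives ran from 6.21e-05 to 0.115.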

How the results depend on the processing

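No member past the threshold reversed its direction under any alternative run. The counts below show how the calls depend on the method. Shares of all genes called are given above for the first fits. For these alternatives they are given only for gonadal somatic cells without both libraries that stood apart. A changed count is taken as no result about the members. With DESeq2 or with no filter on low counts, the number of members called in gonadal somatic cells was 1 in XY +KTS KO, 2 between the WT sexes and 1 for the -KTS KO interaction, against 0, 1 and 0. It was also 4 in XX -KTS KO (against 3) and 3 in XX +KTS KO (against 2). For the supporting lineage DESeq2 and no filter gave 5 and 6 in XY -KTS KO (against 4) and 4 and 4 in XX +KTS KO (against 3), and no filter gave 5 in XX -KTS KO (against 4). The replicate block lowered the XX +KTS KO count from 2 to 1, as did summing all kept cells, and the block changed no other call. The labels give nothing that same-numbered libraries share beyond the number. By the paper's stages, replicate 1 was the later one in both +KTS KO sexes. The cause of these changes was not tested. A resolution of 1.2 gave, in the supporting lineage, 1 member in XY +KTS KO (against 2, Fst being lost) and 3 in XX -KTS KO (against 4, Inhbb being lost).

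Leaving out both libraries that stood apart, an alternative chosen after the data were seen, gave 2 members in XX -KTS KO (against 3), 3 in XX +KTS KO (against 2), 1 in XY +KTS KO, 2 between the WT sexes and 0 for the +KTS KO interaction (against 1). The other 2 counts in gonadal somatic cells stayed. The background also moved in that fit. For XX -KTS KO, 4.68% of all genes were higher and 5.59% lower, against 6.77% and 9.52% in the first fit. Shares for XX +KTS KO were 2.76% and 3.34%, against 2.33% and 2.67%. XY +KTS KO had 3.67% and 4.48%, against 6.04% and 6.33%. Between the WT sexes they were 7.08% and 8.07%, against 6.29% and 6.98%. The +KTS KO interaction had 1.83% and 0.963%, against 2.03% and 1.80%. Supporting-lineage counts were 2 in XX -KTS KO (against 4), 6 in XY -KTS KO (against 4), 4 in XX +KTS KO (against 3) and 1 in XY +KTS KO (against 2, with Inha in place of Fst and Tgfbr3). With 1 library left out, the counts in gonadal somatic cells ran from 1 to 3 in XX -KTS KO, 1 to 2 in XY -KTS KO, 0 to 0 in XX +KTS KO, 0 to 1 in XY +KTS KO, 0 to 1 between the WT sexes, 0 to 1 for the -KTS KO interaction and 0 to 2 for the +KTS KO interaction. In the supporting lineage they ran from 1 to 4, 3 to 5, 0 to 1 and 1 to 3 in XX -KTS KO, XY -KTS KO, XX +KTS KO and XY +KTS KO. A group left with 1 library is then assumed to vary like the others.

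Class levels moved by at least the spread between libraries in 93 cases and by less in 427 at a resolution of 1.2, and in 155 and 375 with doublets kept, while shares of cells moved in 411 cases and stayed in 29 without thinning. A value at 0 in both libraries has no spread and was counted as moved even where it stayed at 0. Inhba rests on 0 to 58 UMIs a library in the supporting lineage, and supporting-lineage values of XX +KTS KO replicate 2 rest on 119 cells. Tail somite stage and embryo number per library were not modelled and cannot be told apart from the replicate.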
